A study of Arabidopsis thaliana with 12 samples.

Results

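IAA29 (AT4G32280), IAA30 (AT3G62100) and GH3.3 (AT2G23170) are 3 Arabidopsis genes of the auxin response. They were chosen by name, with earlier results of these data known, and the p-values below do not allow for that choice. The Affymetrix ATH1 probe sets 253423_at, 251246_at and 245076_at each name 1 of these genes, and are 3 of 22746 probe sets tested. The study used 12 arrays of total RNA from aerial parts of seedlings grown for 2 weeks on agar, 3 arrays in each of 4 groups. Plants of the wild type (Col-0) or of the mutant received a 1 h spray, either 20 µM of the cytokinin trans-zeatin (tZ) or 0.02% DMSO as the control. The mutant's labels name the insertion lines SALK_098604 and SALK_054752, known as lines of the type-B response regulator genes ARR10 and ARR12. They do not say whether 1 plant carried both. Neither gene was named on the array in the annotation used here, so the genotype could not be checked by the transcripts of these genes. Whether replicate arrays were hybridised with RNA of separate cultures is not labelled, and p-values cover only the array-to-array spread, possibly a technical one.

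Auxin acts by removing repressors. Aux/IAA proteins bind auxin response factors and hold their target genes down, and auxin glues Aux/IAA proteins to the TIR1/AFB receptors, which mark them for degradation through a short degron in their domain II. IAA29 is such an Aux/IAA gene, known as a target of the phytochrome-interacting factors in shade and warmth. IAA30 encodes an Aux/IAA protein that lacks the usual domain II. GH3.3 encodes an enzyme that joins auxin to amino acids, which lowers free auxin, and its transcript is a known early auxin-induced one. Cytokinin and auxin act on each other at many points of shoot development, and type-B response regulators carry the cytokinin signal to target genes.

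ARR15 and markers of shoot and root were read to check the labels. ARR15, a type-A response regulator gene and a classic early cytokinin target, read 14.7 ± 5.05 under DMSO and 447 ± 40.2 under tZ in wild type (SD, n = 3 each), and 11.1 ± 2.38 and 158 ± 5.34 in the mutant. Under tZ it was lower in the mutant (log2 difference -1.44, limma adjusted p = 0.00044), where 0.0352% of all probe sets passed in either direction. The difference between its tZ responses did not pass (-1.23, limma adjusted p = 0.18). Of the shoot markers, 4 of 11 were measured by name. The light-harvesting gene LHCB4.1 lay between 4365 and 5389 on every array, the protochlorophyllide reductase gene PORB had group means from 1372 to 1616, and the stomatal gene FAMA (FMA in the gene table) from 50.5 to 60.3, with no call for these 3. The stem cell peptide gene CLV3 stayed below the highest absent-control signal in each group mean. It was called lower after tZ in wild type (limma adjusted p = 0.043) and in the mean over genotypes (0.032), and each call held in only 4 of 12 fits with an array dropped. Those were the fits without wild type tZ replicate 2, wild type DMSO replicate 3 or mutant DMSO replicate 1 for both calls, without mutant DMSO replicate 2 in wild type, and without mutant tZ replicate 3 in the mean. Of the root markers, 2 of 10 were measured by name. PYK10, a beta-glucosidase gene, was bright on all arrays and its summed signal with the root hair expansin EXPA7 ran from 495 to 743 on tZ arrays and from 647 to 1273 on DMSO arrays, so it moved with the treatment. PYK10 fell after tZ in wild type (log2 difference -0.64, limma adjusted p = 0.012, but 0.063 without wild type DMSO replicate 2) and in the mutant (-0.83, limma adjusted p = 0.0022), and its part in the results below was not tested. EXPA7 had all 4 group means under the highest absent-control signal. The 5' to 3' signal ratio of a transcript falls where labelled RNA covers mainly its 3' end. For GAPDH it was 0.428 to 0.489 on the 6 tZ arrays and 0.0560 to 0.0712 on the 6 DMSO arrays. For actin it was 0.0364 to 0.0480 on tZ arrays and 0.00890 to 0.0122 on DMSO arrays. The ubiquitin ratio differed less, 0.248 to 0.325 on tZ arrays and 0.137 to 0.183 on DMSO arrays. Treatment and this property of the RNA cannot be told apart in any comparison of tZ with DMSO below. Comparisons of genotypes under 1 treatment lie within 1 side of that division. Over both treatments, limma averages both sides and the permutation test mixes them.

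The level that a missing transcript gives came from 27 bacterial probe sets. Their 324 values over the 12 arrays had a median of 0.900, a 95th percentile of 5.88 and a highest value of 11.2, on mutant tZ replicate 2. The signal of GH3.3 lay above this mark on 12 of 12 arrays, from 35.4 to 80.9, and was 3.86 to 11.4 times the highest absent control of its own array. IAA30 lay above 11.2 on 9 of 12 arrays, and above the highest absent control of its own array on 11 of 12. IAA29 lay above 11.2 on 4 of 12 arrays and above its own array's highest absent control on 9 of 12. On wild type tZ replicate 2, where IAA29 read 3.81, 4 of the 27 absent controls read as high or higher. In rank, 33.0% of all probe sets had a lower mean signal than IAA29, 36.5% a lower one than IAA30 and 58.2% a lower one than GH3.3.

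**Figure D1:**
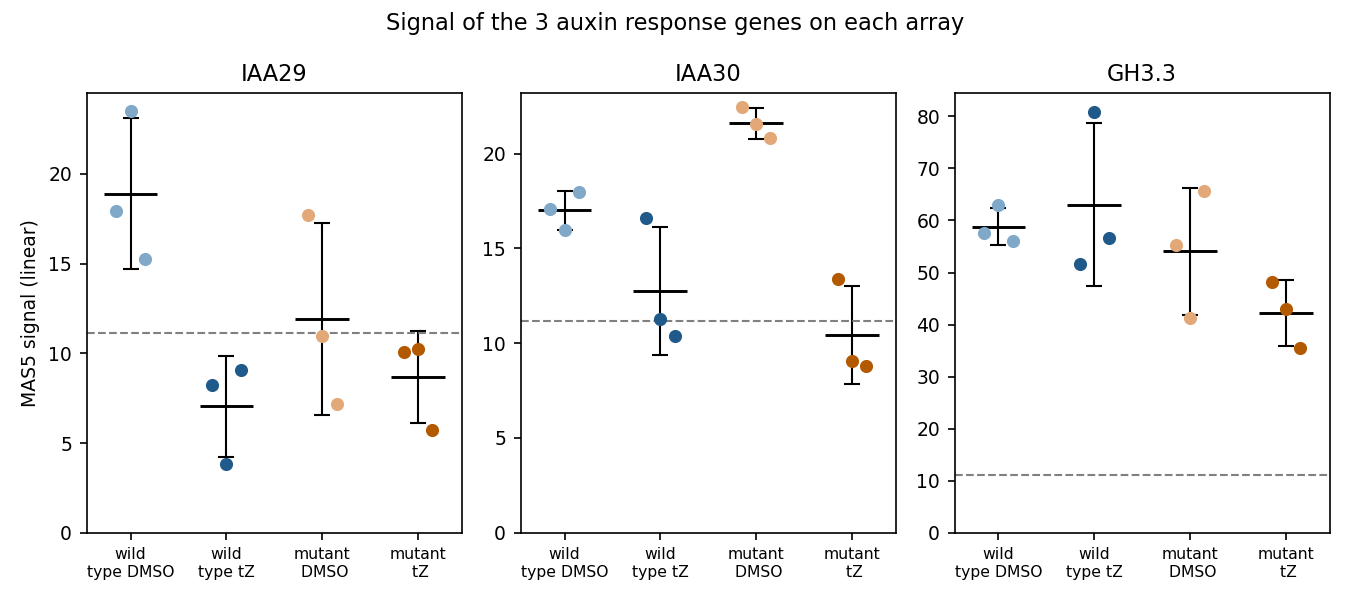
MAS5 signal (linear scale) of IAA29, IAA30 and GH3.3 on each of the 12 arrays, with 1 point per array, a bar at the group mean and error bars of 1 SD (n = 3). The dashed line marks the highest absent-control signal, 11.2, which all 6 tZ arrays stay under for IAA29, and which all 12 arrays exceed for GH3.3.

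IAA29 fell after tZ in wild type shoots. Its signal was 17.9, 23.5 and 15.3 on the wild type DMSO arrays and 8.25, 3.81 and 9.05 on the tZ arrays. All DMSO arrays lay above all tZ arrays. In whole shoots, fewer cells with a transcript and less transcript per cell cannot be told apart. The group means were 18.9 ± 4.20 and 7.04 ± 2.82 (SD, n = 3 each). On the log2(signal + 10) scale, where the added 10 damps noise in dim signals and understates their change, IAA29 fell by 0.77 (SE 0.20, 95% interval -1.19 to -0.34, limma adjusted p = 0.0055). Against the highest absent control of its own array, IAA29 was 1.31, 0.51 and 1.81 times as high on tZ replicates 1, 2 and 3. Every tZ array lay under 11.2, the highest value over all arrays, so the size of the fall is only a bound. Taken against 11.2, the geometric mean of the DMSO arrays was at least 1.67-fold higher. The signals as read give a ratio of 2.68. The log2 value moved with the pseudocount, from -1.36 with 1 added to -0.27 with 50, and the call held with both (limma adjusted p = 0.01 and 0.004; range over all alternatives 0.003 to 0.032). Of all probe sets, 25.4% fell in wild type by the same rule, and 29.6% had tZ arrays all below the DMSO arrays.

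In the mutant, IAA29 was mostly under the mark and uneven between arrays, so whether it fell could not be told. It exceeded the highest absent control of its own array except on DMSO replicate 3 and tZ replicate 2. It read 17.7, 10.9 and 7.15 under DMSO and 10.1, 10.3 and 5.73 under tZ, so 1 DMSO array was high and the other two overlapped the tZ arrays. All 3 tZ arrays and 2 of the 3 DMSO arrays lay under the mark of 11.2, and the geometric mean of the DMSO arrays was itself 11.2, so no bound on a fold can be given. The means as read were 11.9 ± 5.35 and 8.69 ± 2.57 (SD, n = 3 each), with a log2 difference of -0.21 (SE 0.20, 95% interval -0.64 to 0.21, limma adjusted p = 0.44), which cannot show whether the gene fell. It was -0.03 without mutant DMSO replicate 1, -0.09 without mutant tZ replicate 3 and -0.38 without mutant DMSO replicate 3. The order of the group means was wild type DMSO, mutant DMSO, mutant tZ and wild type tZ. Each neighbour in this order overlapped the next.

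The responses of IAA29 in both genotypes were not shown to differ. The mutant's log2 response lay 0.55 above that of wild type (SE 0.28, 95% interval -0.05 to 1.15, limma adjusted p = 0.76, unadjusted p = 0.068). The interval spans 0 and runs past the size of the wild type fall. This difference rests in part on signals under the mark, which are every tZ array of both genotypes and mutant DMSO replicates 2 and 3. Under DMSO the mutant was lower by a log2 difference of -0.42 (95% interval -0.84 to 0.01, limma adjusted p = 0.54), with mutant replicate 1 inside the wild type range and the other two mutant arrays under 11.2. It was -0.60 without mutant DMSO replicate 1 and -0.25 without mutant DMSO replicate 3. Under tZ the difference was 0.14 (95% interval -0.29 to 0.56), between groups that both lay under 11.2.

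IAA30 fell after tZ in the mutant. Its signal was 22.4, 21.6 and 20.8 on the mutant DMSO arrays, a narrow range, and 13.4, 9.06 and 8.80 on the tZ arrays. No tZ array came near the DMSO arrays. The means were 21.6 ± 0.819 and 10.4 ± 2.59 (SD, n = 3 each), a ratio of 2.07 as read, and the log2 difference was -0.64 (SE 0.14, 95% interval -0.94 to -0.33, limma adjusted p = 0.002). With 2 of the 3 tZ arrays under 11.2, the lower level is only partly measured. The log2 value was -1.01 with a pseudocount of 1 and -0.25 with 50 (limma adjusted p = 0.0048 and 0.00092; range over all alternatives 0.00072 to 0.011). In the mutant 24.9% of all probe sets fell by this rule, and 30.1% had tZ arrays all below the DMSO arrays.

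In wild type the same gene read 17.1, 16.0 and 18.0 under DMSO and 16.6, 11.3 and 10.4 under tZ. Here tZ replicate 1 lay among the DMSO arrays while the other two were below them. The means were 17.0 ± 1.03 and 12.8 ± 3.38 (SD, n = 3 each), and the log2 difference of -0.26 did not pass (SE 0.14, 95% interval -0.56 to 0.05, limma adjusted p = 0.17). Without wild type tZ replicate 1 it was -0.38 (limma adjusted p = 0.058). Between genotypes the response differed by -0.38 (95% interval -0.81 to 0.05, limma adjusted p = 0.77, unadjusted p = 0.078), which does not separate them.

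Under DMSO, all mutant arrays of IAA30 lay above all wild type arrays, at means of 21.6 and 17.0. The log2 difference was 0.23 (95% interval -0.08 to 0.53) and did not pass (limma adjusted p = 0.66). Arrays of the genotypes failed to overlap under DMSO in 12.4% of all probe sets, 6.00% with the mutant higher. Under tZ the arrays overlapped, with a log2 difference of -0.15 (95% interval -0.46 to 0.15). This was -0.04 without wild type tZ replicate 1, -0.10 without mutant tZ replicate 3 and -0.26 without mutant tZ replicate 1. By group mean IAA30 thus ran from mutant DMSO through wild type DMSO and wild type tZ to mutant tZ. The first step was without overlap but did not pass, and the lower neighbours overlapped.

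Averaged over genotypes, both Aux/IAA genes fell with tZ. The mean log2 difference was -0.49 for IAA29 (SE 0.14, limma adjusted p = 0.0084) and -0.45 for IAA30 (SE 0.10, limma adjusted p = 0.0016). These calls, too, stand beside a large background, since 30.4% of all probe sets fell in this comparison. On the raw signal, with no log scale, the 6 tZ arrays of IAA29 ranged from 3.81 to 10.3 with a median of 8.65, and the 6 DMSO arrays from 7.15 to 23.5 with a median of 16.5 (exact permutation test, two-sided, p = 0.022). For IAA30 the tZ arrays ranged from 8.80 to 16.6 with a median of 10.8, and the DMSO arrays from 16.0 to 22.4 with a median of 19.4 (exact permutation test, two-sided, p = 0.0043). A single tZ array of IAA30, wild type replicate 1, reached into the DMSO range. These are 2 of 6 such tests, for 3 genes and both factors, and are not adjusted.

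GH3.3 did not pass in either genotype. In wild type it read 57.7, 62.9 and 56.0 under DMSO and 51.6, 80.9 and 56.6 under tZ. The tZ values straddled the DMSO values, with 1 high array. The means were 58.8 ± 3.60 and 63.0 ± 15.7 (SD, n = 3 each), and the log2 difference was 0.07 (SE 0.16, 95% interval -0.29 to 0.42, limma adjusted p = 0.79). Its sign rests on tZ replicate 2, without which it was -0.10. An estimated difference of 0.43 would have passed.

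In the mutant GH3.3 read 55.3, 41.3 and 65.7 under DMSO and 48.2, 43.1 and 35.4 under tZ, with overlap at the lower end. The means were 54.1 ± 12.2 and 42.2 ± 6.40 (SD, n = 3 each), with a log2 difference of -0.29 (95% interval -0.64 to 0.07, limma adjusted p = 0.19). It was -0.44 without mutant DMSO replicate 2 (limma adjusted p = 0.052), -0.16 without mutant DMSO replicate 3 and -0.19 without mutant tZ replicate 3. The difference between the responses was -0.35 (95% interval -0.85 to 0.15, limma adjusted p = 0.83), and -0.18 without wild type tZ replicate 2 or -0.22 without mutant DMSO replicate 3. Averaged over genotypes the log2 difference was -0.11 (95% interval -0.36 to 0.14, limma adjusted p = 0.47), with a range of -0.19 to -0.05 when single arrays were left out, lowest without wild type tZ replicate 2 and highest without mutant DMSO replicate 3. The raw signal gave an exact permutation p of 0.62 (two-sided), with tZ arrays from 35.4 to 80.9 and DMSO arrays from 41.3 to 65.7.

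Between genotypes GH3.3 did not pass, although its mutant and wild type arrays under tZ did not overlap. The highest mutant array, 48.2, lay under the lowest wild type array, 51.6. The log2 difference was -0.47 (SE 0.16, 95% interval -0.82 to -0.12), with an unadjusted p of 0.013 but a limma adjusted p of 0.68 over all probe sets. Without wild type tZ replicate 2, the high array, it was -0.30. Non-overlap with the mutant lower was seen under tZ in 6.77% of all probe sets, and 5.56% had an unadjusted p under 0.05. Under DMSO the genotypes overlapped (log2 difference -0.12, 95% interval -0.47 to 0.23). Over both treatments the log2 difference was -0.30 (limma adjusted p = 0.54), and the raw signal gave an exact permutation p of 0.058 (two-sided), with mutant arrays from 35.4 to 65.7 and wild type arrays from 51.6 to 80.9. That test divided the arrays without regard to treatment. The order of the group means was wild type tZ, wild type DMSO, mutant DMSO and mutant tZ, with overlap between each pair of neighbours.

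**Figure D2:**
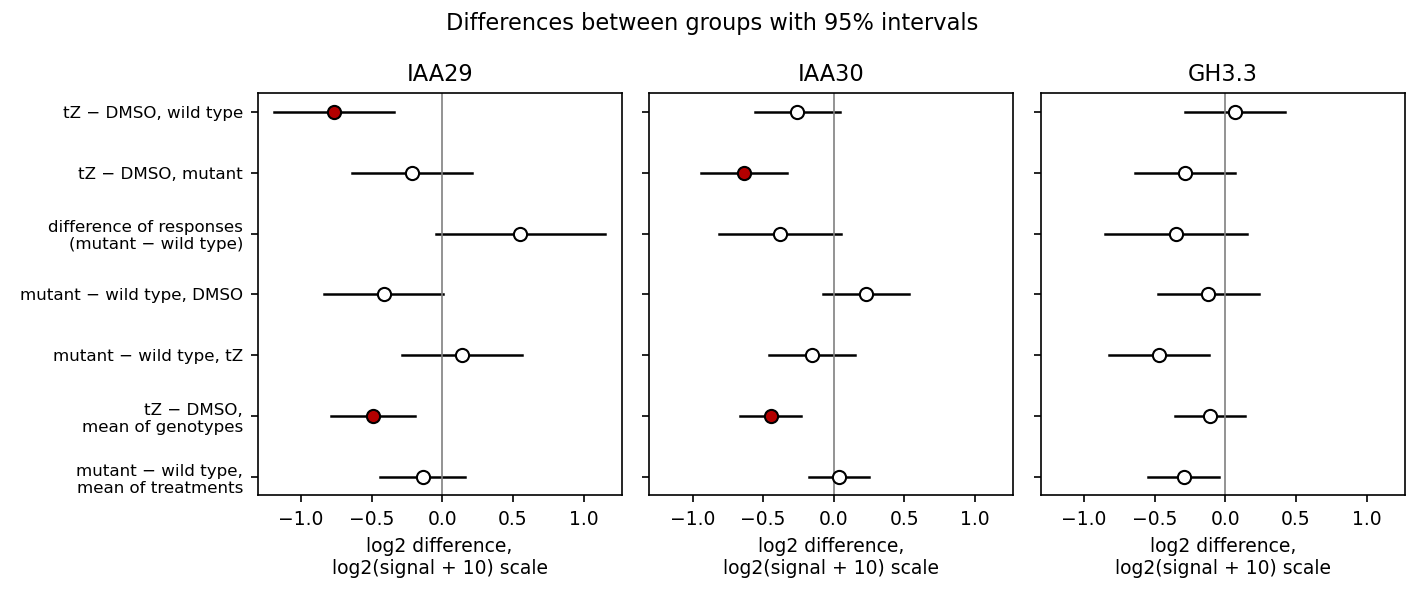
Differences between groups for the 3 genes on the log2(signal + 10) scale, with 95% intervals from limma over all 12 arrays. Filled points passed at an adjusted p under 0.05, which were IAA29 in wild type (-0.77), IAA30 in the mutant (-0.64) and both genes in the mean over genotypes (-0.49 and -0.45).

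The spread set what could pass. The moderated SD on the log2 scale was 0.24 for IAA29, 0.17 for IAA30 and 0.20 for GH3.3. Between genotypes very few probe sets passed, 0.0132% under DMSO and 0.0352% under tZ, so the threshold there was far stricter. IAA29 would have needed an estimated log2 difference of 2.93 under DMSO and 1.31 under tZ, IAA30 2.1 and 0.94, and GH3.3 2.45 and 1.09. For the difference between the responses limma called 0.00% of probe sets, while 7.03% had an unadjusted p under 0.05. Over both treatments 0.0572% passed between genotypes.

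Of 29 listed Aux/IAA genes, 7 were measured by name, IAA29 and IAA30 included. Others may lie among the 8730 probe sets without a gene name or the 503 naming several, which were not searched. In wild type 1 of the 7 fell, which was IAA29, and 0 rose, where 25.4% of all probe sets fell and 18.2% rose. The median log2 difference was -0.26, which is the value of IAA30 itself, against -0.08 for all probe sets. In the mutant 1 fell, which was IAA30, and 1 rose, where 24.9% of all probe sets fell and 17.9% rose. The median there was -0.14, the value of IAA33, against -0.07. Among the 5 other genes, IAA18 alone passed in a genotype. IAA18, a canonical family member with a role in embryo patterning, went from 96.0 ± 15.1 to 130 ± 11.8 in the mutant (log2 difference 0.41, SE 0.10, limma adjusted p = 0.0049). In wild type it read 103 ± 3.01 and 117 ± 8.05 (log2 difference 0.17, limma adjusted p = 0.21). The difference between its responses did not pass (0.23, limma adjusted p = 0.82). In the mean over genotypes IAA18 rose (0.29, limma adjusted p = 0.0036). IAA20, IAA31, IAA33 and IAA34, which like IAA30 are known for lacking a usual domain II, had all 4 group means under 11.2 and passed in neither genotype. IAA31 passed in the mean over genotypes (log2 difference -0.33, limma adjusted p = 0.027), but leaving out any of 5 of the 12 arrays ended the call. The limma adjusted p was 0.07 without wild type tZ replicate 1, 0.063 without wild type DMSO replicate 2, 0.068 without mutant tZ replicate 3, 0.056 without mutant DMSO replicate 2 and 0.059 without mutant DMSO replicate 3.

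Among GH3 enzymes 5 of 13 listed genes were measured by name. In wild type 1 fell and 0 rose, where 25.4% of all probe sets fell and 18.2% rose. In the mutant 1 fell and 1 rose, where 24.9% fell and 17.9% rose. GH3.17, which conjugates auxin to glutamate, fell in both genotypes, from 40.9 ± 9.35 to 22.9 ± 5.48 in wild type (log2 difference -0.63, limma adjusted p = 0.0043) and from 48.4 ± 4.26 to 27.3 ± 3.09 in the mutant (-0.65, limma adjusted p = 0.0036). GH3.9 rose in the mutant, from 8.08 ± 1.02, under the absent-control mark, to 17.1 ± 2.02 (log2 difference 0.58, limma adjusted p = 0.0018). In wild type it read 12.7 ± 1.62 and 13.9 ± 2.08 and did not pass (limma adjusted p = 0.69). The difference between the responses did not pass either (0.51, limma adjusted p = 0.60). In the mean over genotypes GH3.9 rose (log2 difference 0.33, limma adjusted p = 0.0069) and GH3.17 fell (-0.64, limma adjusted p = 0.00019). GH3.5, named WES1 in the gene table, an enzyme of auxin and salicylate conjugation, read 29.7 ± 9.14 and 34.7 ± 7.31 in wild type and 23.4 ± 7.20 and 35.8 ± 2.64 in the mutant, and did not pass. GH3.1 had all 4 group means under 11.2. The list had a median log2 difference of 0.07 (wild type) or 0.03 (mutant), against -0.08 and -0.07 for all probe sets.

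**Figure D3:**
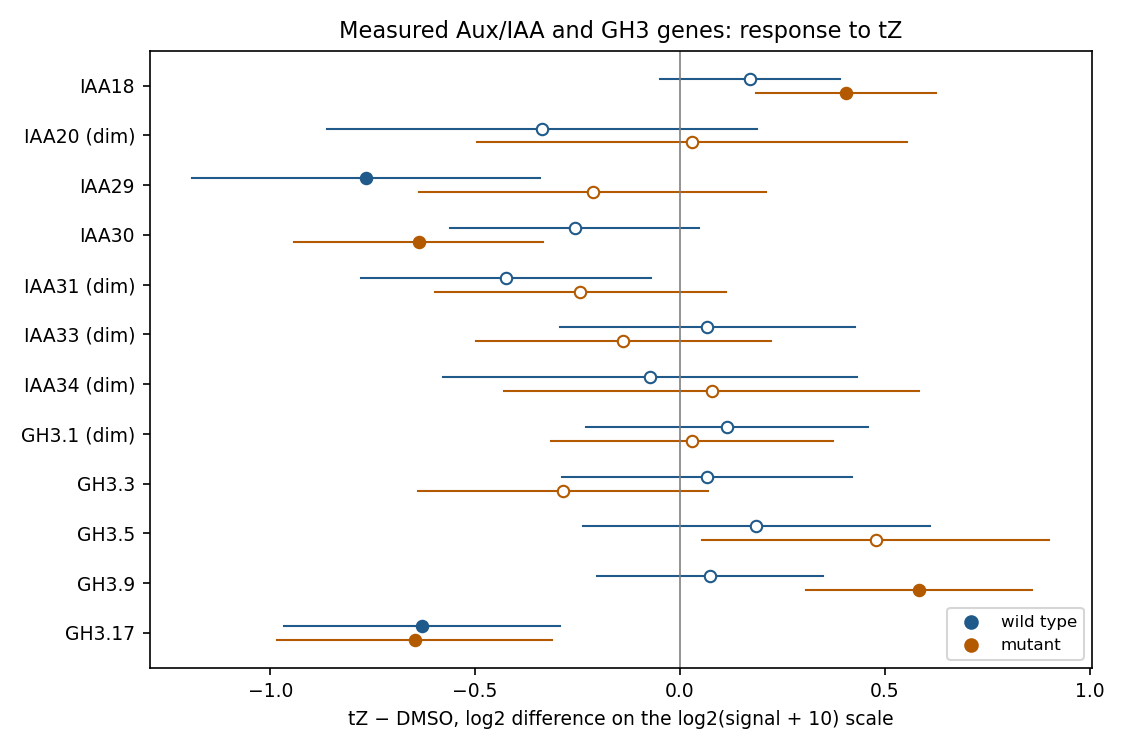
Response to tZ (tZ minus DMSO, log2 difference on the log2(signal + 10) scale, 95% interval) of the 7 measured Aux/IAA and 5 measured GH3 genes in wild type (blue) and mutant (orange). Filled points passed at a limma adjusted p under 0.05, and "dim" marks genes whose 4 group means all lay under 11.2. IAA29, IAA30 and GH3.17 have filled points to the left, IAA18 and GH3.9 to the right.

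Beyond these families the auxin genes measured by name were few. The 12 listed names of other auxin response genes include BRU6, AXR5 and DFL1, which are GH3.2, IAA1 and GH3.6 of those families. Of the 12 names, 3 were measured. In each genotype 1 rose, where 18.2% of all probe sets rose in wild type and 17.9% in the mutant. This was HAT2, an auxin-induced homeodomain-leucine zipper gene, which went from 64.3 ± 5.39 to 147 ± 6.50 in wild type (log2 difference 1.08, limma adjusted p = 1.2e-05) and from 41.6 ± 10.9 to 116 ± 7.32 in the mutant (1.31, limma adjusted p = 1.9e-06). Its mutant arrays lay below the wild type arrays under both treatments, without passing (limma adjusted p = 0.20 under DMSO and 0.85 under tZ). Such an order was seen in 6.42% of all probe sets under DMSO and 6.77% under tZ. The lateral root genes LBD16 and LBD29 had all group means under 11.2. Of 23 auxin synthesis genes 4 were measured, and 0 passed in wild type. In the mutant 1 fell and 1 rose, where 24.9% of all probe sets fell and 17.9% rose. The flavin monooxygenase gene YUC2 fell in the mutant, from 46.8 ± 5.64 to 30.9 ± 3.44 (log2 difference -0.47, limma adjusted p = 0.0047). In wild type YUC2 read 44.5 ± 5.09 and 42.4 ± 3.17 and did not pass (limma adjusted p = 0.76). The difference between its responses did not pass either (-0.42, limma adjusted p = 0.66). YUC11 passed in the mutant with all group means under 11.2, but its limma adjusted p was 0.057 to 0.12 without any 1 of the 3 mutant tZ arrays or of mutant DMSO replicates 1 and 3. YUC4 and YUC6 did not pass.

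Of auxin breakdown and storage, 2 of 15 genes were measured. In each genotype 1 fell, where 25.4% of all probe sets fell in wild type and 24.9% in the mutant. UGT74D1, a glucosyltransferase that acts on auxins, fell in both genotypes, from 221 ± 20.4 to 160 ± 14.9 in wild type (log2 difference -0.44, limma adjusted p = 0.0021) and from 256 ± 28.4 to 174 ± 15.2 in the mutant (-0.53, limma adjusted p = 0.00055). UGT84B1 stayed under 11.2 throughout. Of 17 listed names of shade and phytochrome-interacting factor genes, which name XTH15 also as XTR7, 2 were measured. Here too 1 fell in each genotype, beside the same shares of all probe sets. BIM1, a partner of a brassinosteroid transcription factor, fell from 164 ± 22.6 to 62.7 ± 9.37 in wild type and from 157 ± 19.4 to 68.2 ± 3.80 in the mutant (log2 differences -1.26 and -1.09, limma adjusted p = 1e-06 and 4.3e-06), while FHL, a phytochrome import gene, did not pass. For SAUR genes, auxin response factors, receptors and transporters, 0 of those listed was measured by name, so they were not analysed here. Genes were matched by symbol, ARF3 to AT2G24765 and ARF1 to none, and whether each match was the intended gene was not checked. A listed gene that was not measured by name may still have a probe set among those without a single gene name.

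The genes whose profiles lay nearest to each of the 3 were found by the root mean square difference of log2(signal + 10), centred on each gene's own mean, over the 12 arrays, among 8410 probe sets that name 1 gene and had a mean above 11.2. IAA30 had the closest neighbours, AT1G69360 (0.08), AT1G30600 (0.09) and AT2G17990 (0.10), where the median candidate lay at 0.32. It also had the lowest residual SD within groups, 0.14 against 0.26 for IAA29 and 0.23 for GH3.3. The distances were not scaled for this spread, so they do not rank how well the profiles match. AT1G69360 went from 33.6 ± 2.18 to 19.5 ± 2.71 in the mutant and from 27.8 ± 3.64 to 21.4 ± 2.27 in wild type. The nearest to IAA29 were AT4G03340, AT5G10650 and AT5G04250 at 0.17 to 0.18, against a median of 0.39, and AT4G03340 was as dim as IAA29, at 18.9 ± 3.20 and 8.10 ± 4.06 in wild type. The nearest to GH3.3 were AT2G03380, AT1G48960 and AT5G52430, each at 0.16 against a median of 0.37. Among themselves the 3 genes lay 0.33 (IAA29 and IAA30), 0.33 (IAA30 and GH3.3) and 0.43 (IAA29 and GH3.3) apart. These distances lie near the candidate medians. The arrays shared their treatment and RNA division, which any such likeness includes.

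**Figure D4:**
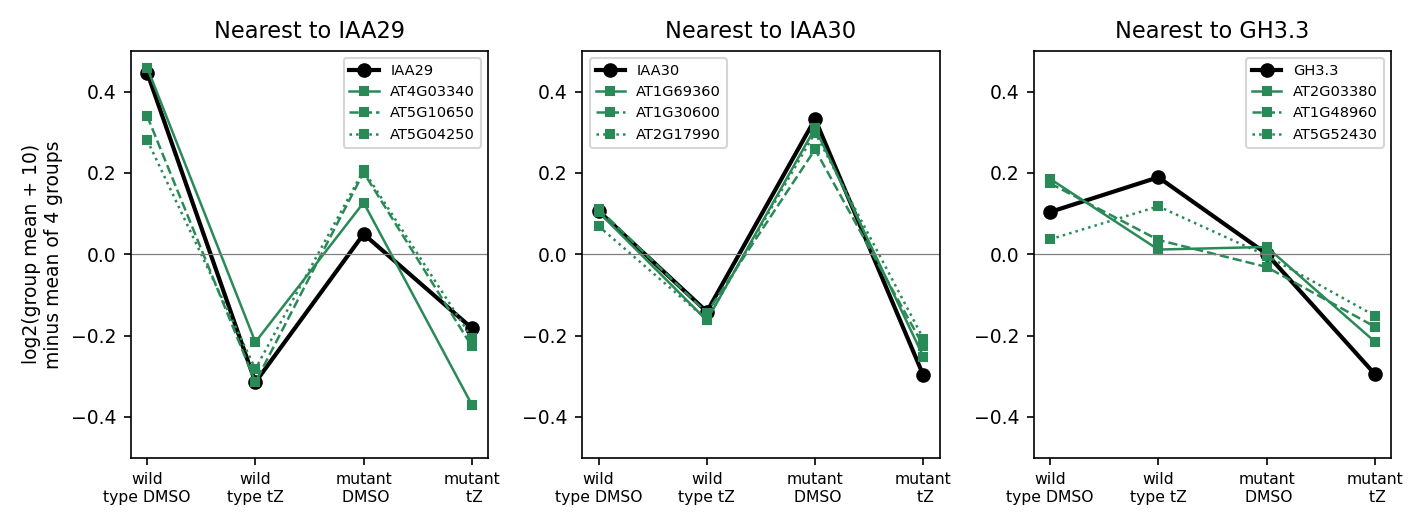
Group profiles of IAA29, IAA30 and GH3.3 (black) and of the 3 named genes nearest to each (green), as log2(group mean + 10) minus the mean over the 4 groups. The neighbours of IAA30 have the smallest root mean square differences over arrays, 0.08 to 0.10, against 0.16 for those of GH3.3. These distances are not scaled for the spread of each gene.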

How the data were processed

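The authors deposited 1 linear intensity per probe set and array, a signal computed with MAS5 per the submitters' processing notes. Version and scaling target are not given in the sources used here, and detection calls were not used. Array medians ran from 33.8 to 35.7, and precision is limited by how many arrays there are. Of 22810 probe sets, 64 were controls and 22746 were tested. GEO's platform annotation named 1 gene for 13513, several for 503 and none for 8730, and gene identifiers matched RefSeq's TAIR10.1 table for 13436. No genome build applies to the files, so no coordinates are given, and no sequences were used here.

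Signals were tested as log2(signal + 10) with limma 3.58.1 in R 4.3.3, with 1 mean per group over all 12 arrays, variances moderated with a trend on signal, and 7 two-sided contrasts, each Benjamini-Hochberg adjusted over all 22746 probe sets, at 0.05. Fits were tested on simulated data. Exact permutation tests used scipy 1.17.1 and every division of the 12 arrays into 6 and 6, without regard to the other factor. Genes of the lists that passed are named, as are all measured Aux/IAA and GH3 genes, ARR15, and the 3 nearest profiles per gene. Members and lists were chosen with earlier results of these data known. Alternatives covered pseudocounts, normalization, a filter on dim probe sets, a replicate block, array weights, the variance trend, the groups in the fit and leaving out each array. Arrays with the same replicate number did not deviate together (r from -0.08 to 0.07 over 18 pairs), so they were not treated as paired.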

Additional observations from a re-analysis of the deposited data

How the results depend on the processing

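The calls of IAA29 in wild type, of IAA30 in the mutant and of both in the mean over genotypes kept their direction and stayed under 0.05 in all alternatives that gave a value. The filter on the dimmest 40% of probe sets left out both genes and gave none. With a replicate block the log2 differences were the same, -0.77 for IAA29 in wild type (limma adjusted p = 0.0059) and -0.64 for IAA30 in the mutant (0.0023), and no call of the 3 genes changed. No other comparison of the 3 genes passed in any alternative. With 1 array left out, IAA29 in wild type ran from -0.86 to -0.62 and IAA30 in the mutant from -0.74 to -0.58. Directions turned among differences that never passed. GH3.3 in wild type ran from -0.10 to 0.18, negative without tZ replicate 2, and GH3.3 between genotypes under DMSO from -0.25 to 0.03, positive without mutant DMSO replicate 2. IAA29 between genotypes under tZ ran from -0.0066 to 0.26, and IAA30 between genotypes over both treatments from -0.014 to 0.096. Single values behind these turns were -0.10, 0.032, -0.0066, -0.00094 and -0.014, and the cause was not tested.

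Counts over all probe sets moved by more than 1.5 times only where few passed. The difference between responses went from 0 to 1 with a pseudocount of 1, quantile normalization or no dim probe sets, to 2 with a pseudocount of 50, and from 0 to 1 with 1 array left out. Genotypes under DMSO went from 3 to 18 without dim probe sets, and from 3 to 10 with 1 array left out. Under tZ they went from 8 to 15 without dim probe sets and 22 with array weights. Over both treatments they went from 13 to 26 without dim probe sets, 6 with the replicate block and 5 without a variance trend, and ran from 5 to 15 with 1 array left out.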
